A study of Mus musculus with 8 samples.

Results

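Cadherins and protocadherins, the calcium-dependent adhesion proteins of the cadherin superfamily, were examined in the nucleus accumbens (NAc) of adult mice with and without maternal separation (MS) in early life. Members were all array probes, controls excluded, whose gene name was Cdh followed by a number alone or began with Pcdh. This gave 98 probes of 70 genes, out of 55681 probes and 34797 gene names on the array. They comprised 27 probes of 18 classical cadherin genes, 38 probes of 35 clustered protocadherin genes, 26 probes of 12 non-clustered protocadherin genes and 7 probes of 5 other cadherins (Cdh13, Cdh16, Cdh17, Cdh23 and Cdh26).

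All animals were male C3H/HeN mice, 4 in each group, with 1 single-colour Agilent array per mouse. In the MS group, litters were removed from the dam every day between postnatal days 2 and 14, and the dams were given unpredictable stress during that time. Control litters were left undisturbed, and mice of both groups were weaned at day 21, later worked for sweetened milk in an operant task, and were fasted before the NAc was micropunched. The labels give each animal a number in 2 parts. The first part was the same for most mice of each group and was never shared between the groups. Its meaning is not stated, so the labels do not say which mice shared a litter or a cage. If it marks a litter or a cage, most mice of a group were not independent, which was not tested. The p-values cover only the spread between these mice.

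Classical cadherins join cells through binding of like to like across the membrane, and their cytoplasmic tails hold beta-catenin and p120-type catenins, which link them to actin through alpha-catenin. Type I members such as N-cadherin (Cdh2) and type II members such as Cdh8 and Cdh11 mark different sets of neurons and help sort them into nuclei and layers and shape their synapses. The clustered protocadherins come from the alpha, beta and gamma gene clusters, in which each variable exon has its own promoter. A neuron uses a small, partly random set of them, which gives it a surface identity used for self-avoidance of its dendrites. The non-clustered protocadherins are single genes with more regional patterns, and several of them bind the WAVE complex that drives actin branching.

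Expression was taken as the log2 of the background-subtracted signal minus the log2 of the 75th percentile of its array, so that a level of 0 is a signal equal to that percentile. A probe was tested where 4 or more of the 8 arrays read it well above background, and 83 member probes of 60 genes were kept. Levels of single probes were compared between mice and never between probes. The share of all probes well above background ran from 57.3% to 69.7% over the arrays, and the highest share was that of control replicate 4. All 15 medium spiny neuron genes on the array, among them those of the dopamine receptors and of the striatal peptides, had tested probes. So did all 12 pallidal and 7 of 8 septal genes of the lists used below. Having tested probes therefore does not tell the NAc from neighbouring regions. Differences are log2 levels of MS minus those of control mice with their standard error (SE) from limma, and p-values were adjusted by Benjamini-Hochberg across the 33111 tested probes. In bulk tissue, fewer cells of a type and less RNA per cell cannot be told apart.

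The probes on which the description turns most are shown by the first 30 of their 60 bases, in lower case throughout, with the genome build mm9 positions of the whole probe from the array headers. They are given because several of these genes were read at more than 1 place, and the readings were not alike. Exon and UTR annotation of that build was not used here.
Pcdh8, chr14:80166728-80166787, minus strand: aatgtgttggaattgctcattgggatttta
Pcdh20, chr14:88865889-88865948, minus strand: atatcttagtgcactcttcgctggtcagca
Cdh20, chr1:106891123-106891182, plus strand: gactaagctaaataatcagaaggaaaccca
Cdh7, chr1:111891702-111891761, plus strand: caacatgaaatttttagacctcatggcttc
Pcdh15, chr10:73969284-73969343, plus strand: gtggaatctggaactagaactgggtcctct
Pcdh15, chr10:74089451-74089510, plus strand: aagaccgcaagaattcagtctgctatgcct
Pcdh15, chr10:74105072-74105131, plus strand: tgctggacaggaggaatacggcgaagtcat
Pcdh15, chr10:74112334-74112393, plus strand: ccacattttcccaatttctttaccgaaatg
Pcdh11x, chrX:117405435-117405494, plus strand: aggaaagactttttaggggttgagtgaaga
Pcdh11x, chrX:117515420-117515479, plus strand: tccagcagttctgatccctacagtgtttct
Pcdh11x, chrX:118019923-118019982, plus strand: ttctccaatcatagaggaacaccccttgta
Cdh18, chr15:23376071-23376130, plus strand: taaacaagagatacacatccagtgtgctca
Cdh18, chr15:23404051-23404110, plus strand: agctcactggactccgcaaccacgcaatca

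None of the 83 member probes passed the threshold of limma (adjusted p under 0.05), against 1 of all tested probes (0.00302%), and the smallest adjusted p of a member was 0.109, that of Pcdha11. Over all probes the count of calls depended strongly on the setting, with 486 under normexp background correction, 375 with the log2 values that the authors deposited and 504 under a variance trend with robust moderation, while the members had none under any of these. Before adjustment, 8 member probes had limma p under 0.05 with a lower level in MS mice, 9.64% against 7.71% of all tested probes. Another 4 had it with a higher level, 4.82% against 6.35%. Control and MS ranges were separate for 3 member probes lower in MS mice (3.61% against 4.91%), namely Pcdh8, Cdh20 and 1 of Pcdh15. They were also separate for 3 higher ones (3.61% against 3.76%), namely Pcdha11, Pcdhb18 and 1 of Cdh7. Taken over the whole family, these shares were near those of all probes.

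The classes lay differently around 0. Of the 23 non-clustered protocadherin probes, 15 had a difference below 0 (65.2%, against 49.4% of all tested probes), and their median was -0.14. Of the 34 clustered probes, 10 were below 0 (29.4%) with a median of 0.06, and of the 24 classical probes, 9 were below 0 (37.5%) with a median of 0.05. The median over all tested probes was 0.00. Of the 8 member probes with p under 0.05 in the lower direction, 5 were non-clustered protocadherins, 21.7% of that class against 7.71% of all tested probes. Differences larger than 0.5 in size occurred in 4 of the 23 non-clustered probes (17.4%), against 4.93% of all tested probes. The 4 were Pcdh8, Pcdh20, 1 probe of Pcdh11x and, in the higher direction, Pcdh12, which was not above background in every mouse. Spread was also larger in this class, with a median SD within groups of 0.21 against 0.16 over all tested probes. These shares describe the classes and were not tested, since several probes read the same gene.

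**Figure D1:**
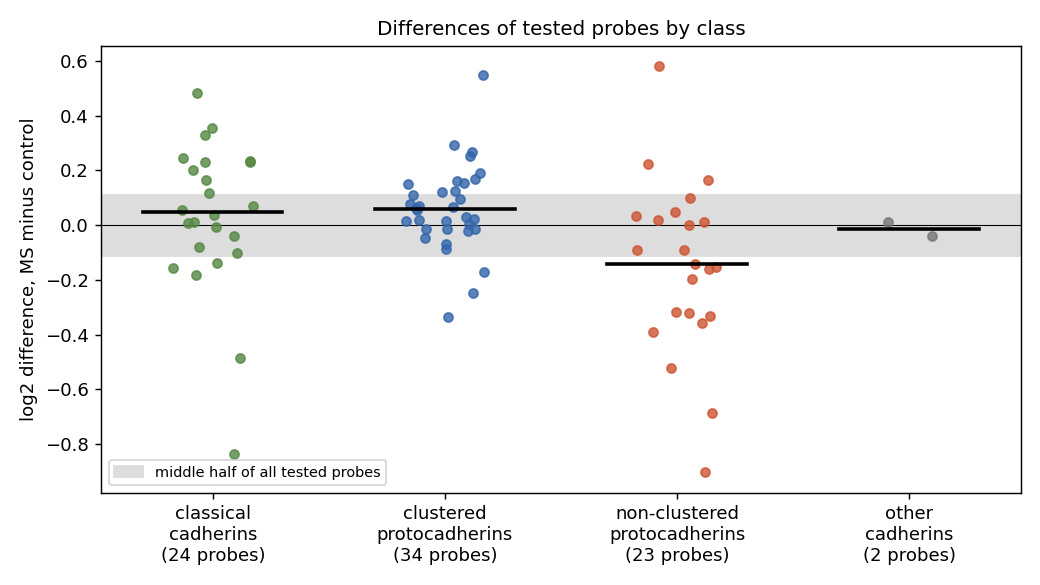
Log2 difference (MS minus control, y axis) of each of the 83 tested probes, by class on the x axis. Points are probes, thick lines are class medians, and the grey band spans the 25th to 75th percentile of all tested probes. The non-clustered protocadherins have their median at -0.14, below the medians of 0.06 and 0.05 of the clustered and classical probes.

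The median of the non-clustered class rested in part on single mice. As the median over its probes of the level minus the mean of the 8 mice, control replicate 4 lay at 0.30 and the other 3 controls between 0.02 and 0.07, while the MS mice lay between -0.10 and -0.02. Leaving out control replicate 4 brought the class median to -0.08, and leaving out MS replicate 3 brought it to -0.05. It was -0.10 without MS replicate 4, -0.20 without MS replicate 1, and -0.04 with the log2 values that the authors deposited. The clustered class median was 0.02 without MS replicate 2, 0.04 without MS replicate 1 and 0.09 without control replicate 1, and the classical median was 0.01 without MS replicate 4, 0.02 without control replicate 1, 0.03 without control replicate 3 and 0.07 without MS replicate 1. With all mice, the classical median was 0.01 without a filter on dim probes, 0.02 with normexp, 0.03 with the deposited values and 0.09 with median scaling. Median scaling also brought the median over all tested probes to 0.04, and relative to that median the classical one was 0.04, as in the main fit.

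**Figure D2:**
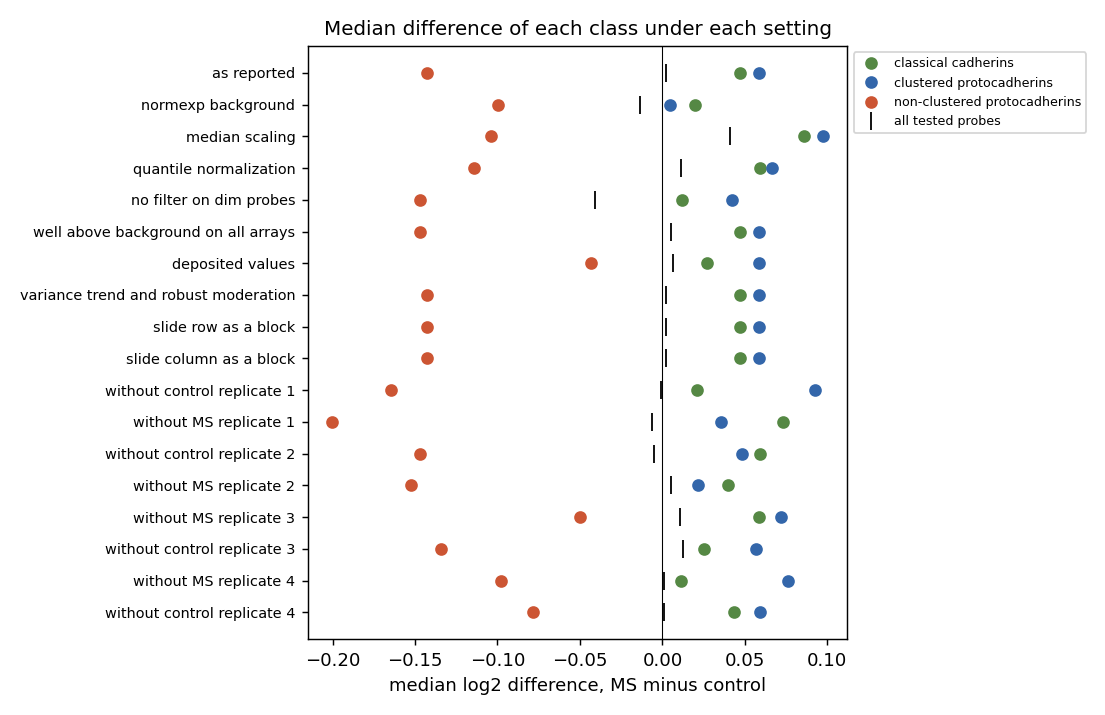
Median log2 difference (MS minus control, x axis) of each class under each setting of the analysis (y axis), with all 8 mice or with 1 mouse left out. The non-clustered median stays below 0 in all 18 settings, from -0.20 to -0.04, and the clustered and classical medians stay above 0. The fits with a variance trend or a slide block leave the differences unchanged, so their medians equal those of the main fit by design.

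Among the non-clustered protocadherins, Pcdh8 (arcadlin), a protocadherin induced by neuronal activity that takes N-cadherin off the synapse, had the smallest p. Its levels were 1.89, 1.72, 1.41 and 2.24 in the controls and 1.30, 0.85, 1.37 and 0.999 in the MS mice. All 4 MS mice lay below all 4 controls, and the gap between the groups was narrow, from 1.37 to 1.41. The difference was -0.69 ± 0.19 (SE), a ratio of 0.621 between the groups, with an unadjusted p of 0.00549 and an adjusted p of 0.173 in limma. Under every setting tried its adjusted p lay between 0.0584 and 0.411.

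Pcdh20, a little-studied member of the same class, had levels of -0.51, 0.03, -0.66 and -0.26 in controls and of -0.74, -1.10, -0.61 and -1.04 in MS mice. MS replicate 3 lay inside the control range, and the other 3 MS mice lay under it. The difference was -0.52 ± 0.17 (SE, limma adjusted p = 0.236). Pcdh19, whose human counterpart is mutated in an X-linked epilepsy of girls, stood at 2.03, 1.74, 1.92 and 2.24 in controls and 1.93, 1.69, 1.52 and 1.46 in MS mice. The groups overlapped through the first MS mouse, and the difference was -0.33 ± 0.14 (SE, limma adjusted p = 0.327), which was -0.08 within the first row of the slide and -0.59 within the second.

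Pcdh15, best known as a part of the tip link of inner ear hair cells, had 7 probes, of which 4 were tested, and all 4 had a difference below 0. In the order of the positions given above, they were -0.39 ± 0.21, -0.32 ± 0.09, -0.36 ± 0.16 and -0.15 ± 0.13 (SE), with limma adjusted p from 0.186 to 0.654. The second of these probes read -2.33, -2.46, -2.63 and -2.30 in controls and -2.66, -2.75, -2.73 and -2.86 in MS mice. It was the probe of the 4 with no overlap between the groups. The first probe was well above background on 3 of the 4 MS arrays, and its lowest value was -4.80 in MS replicate 3. With normexp the 4 differences were -0.16, -0.21, -0.20 and -0.10, and with the deposited values the first, second and last were -0.09, -0.20 and -0.07. The first was -0.23 without MS replicate 3, the next but one was -0.21 without control replicate 4, and the last was -0.04 without MS replicate 4 and -0.08 without control replicate 4. Probes of 1 gene come from the same animals and can share transcripts, so they are not independent. The other 3 probes of the gene were well above background on at most 1 array and were not tested.

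Pcdh11x, an X-linked protocadherin, was read very differently by its 3 probes, whose differences in the order of position were -0.00 ± 0.09, -0.14 ± 0.11 and -0.90 ± 0.35 (SE). The third probe read -2.58, -2.81, -1.13 and -2.23 in controls and -2.56, -3.24, -3.39 and -3.18 in MS mice. Its control spread (SD 0.74) came largely from control replicate 3, the difference was -0.55 without that mouse, and the groups overlapped. This gene was taken up after its values had been seen.

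The remaining non-clustered genes had no probe with an unadjusted p under 0.05. For Pcdh17, which is enriched in corticobasal ganglia circuits and holds back presynaptic assembly there, levels were 3.86, 4.23, 4.20 and 3.96 in controls and 4.08, 4.19, 4.37 and 4.51 in MS mice. The difference was 0.22 ± 0.12 (SE, limma adjusted p = 0.464). Pcdh10, a protocadherin of striatal and amygdala circuits, had differences of 0.02 ± 0.12 and 0.03 ± 0.07 (SE) at its 2 probes. Their values overlapped between groups at each probe.

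For Pcdh7, the 3 probes gave -0.09, -0.09 and -0.20, and the 3 probes of Pcdh9 gave 0.01, -0.16 and 0.10. The single Pcdh18 probe gave -0.32 ± 0.20 and was high in the first MS mouse (-0.22, against -1.12 to -0.99 in the other MS mice). Pcdh1 gave 0.16 ± 0.36 and 0.05 ± 0.10. Pcdh12, a protocadherin of endothelial cells, gave 0.58 ± 0.54 (SE), or 0.06 with normexp and 0.18 with the deposited values, and was well above background on 2 control and 3 MS arrays.

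**Figure D3:**
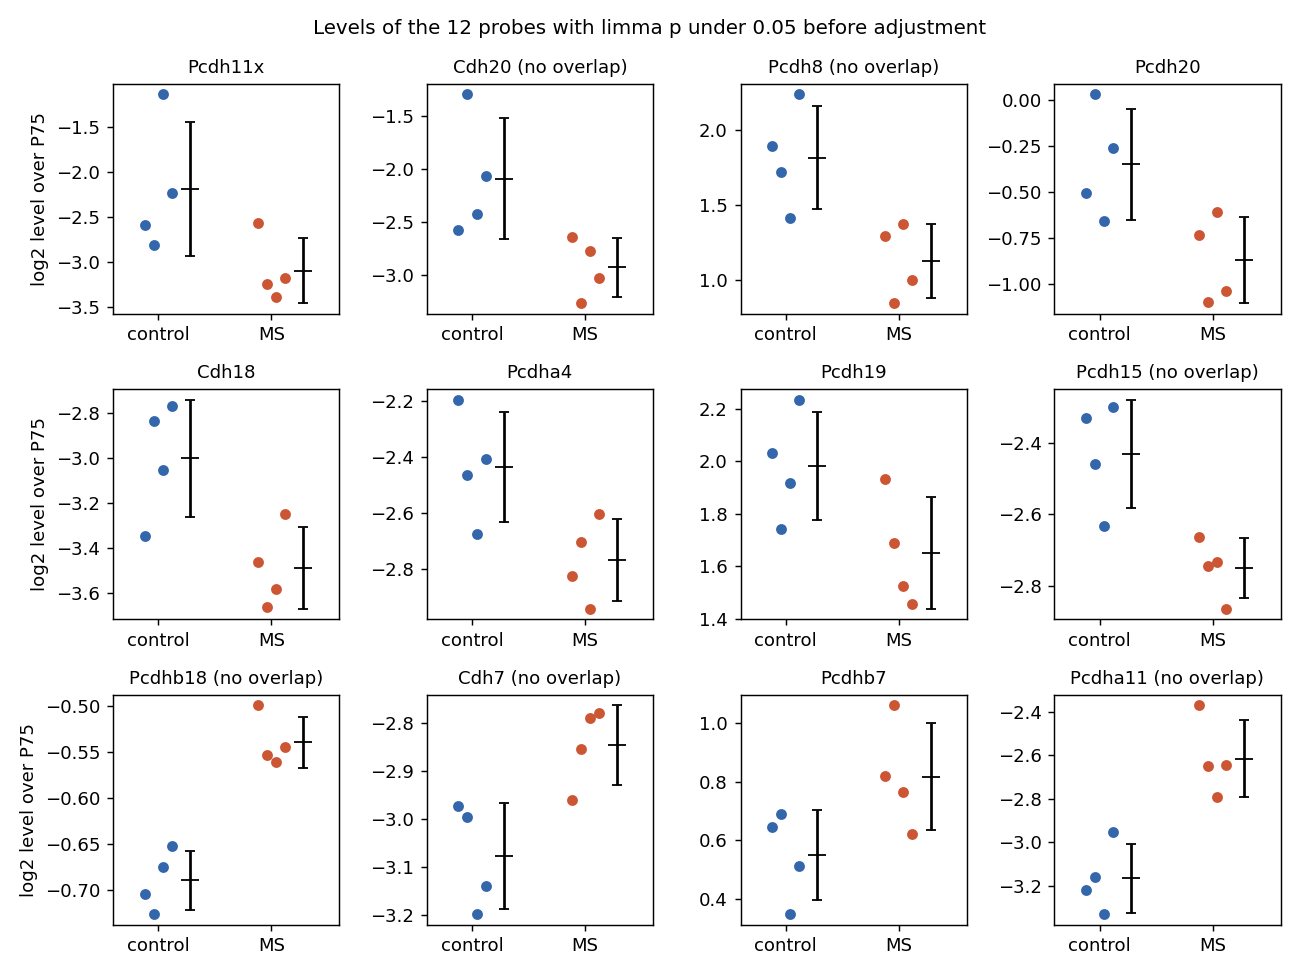
Log2 level over the 75th percentile of the array (y axis, a separate scale for each panel) in each control and MS mouse for the 12 member probes with unadjusted limma p under 0.05. Points are mice, and bars are mean ± SD (n = 4). In 6 panels, those of Cdh20, Pcdh8, 1 Pcdh15 probe, Pcdhb18, 1 Cdh7 probe and Pcdha11, the groups do not overlap.

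Classical cadherins of type I were represented by 6 tested probes, 5 of them below 0, with a median of -0.12. Cdh2 (N-cadherin), the main classical cadherin of synapses, had 2 probes. The first read 3.37, 3.35, 3.34 and 3.55 in controls and 3.29, 3.18, 3.39 and 3.20 in MS mice, and the second 4.24, 4.16, 4.05 and 4.24 in controls and 4.11, 3.95, 4.18 and 3.82 in MS mice. Only MS replicate 3 lay within the control range at the first probe, and MS replicates 1 and 3 did at the second, with differences of -0.14 ± 0.08 and -0.16 ± 0.10 (SE) and limma adjusted p of 0.487 and 0.510. Cdh4 (R-cadherin), a cadherin of retina and brain, gave -0.08 ± 0.22, -0.10 ± 0.12 and -0.18 ± 0.11 (SE) at its 3 probes. The first of these was above 0 with quantile normalization (0.0044) and with the deposited values (0.027). Cdh15 (M-cadherin), a cadherin of muscle also present in brain, gave 0.48 ± 0.45 (SE), and its lowest value, -1.62, was that of control replicate 3.

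Type II cadherins had 18 tested probes of 12 genes, with 14 differences above 0 and a median of 0.09. Cdh20 was the exception in size. Its levels were -2.58, -1.29, -2.43 and -2.06 in controls and -2.64, -3.27, -2.78 and -3.03 in MS mice. The groups did not overlap, but the lowest control and the highest MS mouse differed by little, and control replicate 2 was far above the rest. The difference was -0.84 ± 0.27 (SE, ratio 0.559, limma adjusted p = 0.236), and it was -0.47 with normexp background correction and -0.53 with the deposited values.

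Cdh7 had 3 probes, and at the one whose bases are shown above the levels were -2.97, -3.00, -3.20 and -3.14 in controls and -2.96, -2.85, -2.79 and -2.78 in MS mice. The groups were separate there by the narrowest of margins, with a difference of 0.23 ± 0.08 (SE, limma adjusted p = 0.259), which was 0.07 with normexp. The other Cdh7 probes gave 0.20 ± 0.14 and 0.01 ± 0.10. The 2 probes of Cdh18, described after their values were seen, went opposite ways. The probe at the lower position gave 0.17 ± 0.09, and the probe at the higher position gave -0.49 ± 0.14 (SE, limma adjusted p = 0.198), with levels of -3.35, -2.84, -3.06 and -2.77 in controls and -3.46, -3.66, -3.58 and -3.25 in MS mice. The last MS mouse lay inside the control range at that probe, and its difference was -0.20 with normexp and with the deposited values alike.

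No probe of the other type II genes had an unadjusted p under 0.05. Cdh8, which marks subsets of cortical and striatal neurons, gave -0.04 ± 0.13, 0.01 ± 0.10 and 0.35 ± 0.31 at its 3 probes, of which the last was not above background in every mouse. Cdh9, known from the hippocampal mossy fibre synapse, gave 0.07 ± 0.19, and Cdh10 gave 0.04 ± 0.08. Cdh11, found in neurons and in mesenchyme, gave 0.23 ± 0.11 and 0.25 ± 0.17 (SE), with limma adjusted p of 0.406 and 0.570, and the former was 0.09 with normexp. Among the further genes, Cdh12 gave 0.23, Cdh6 0.06 and Cdh22 -0.01.

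Cdh5 (VE-cadherin), the cadherin of endothelial junctions, read -2.38, -2.20, -2.13 and -2.10 in controls and -2.23, -2.04, -1.95 and -2.12 in MS mice, a difference of 0.12 ± 0.09 (SE, limma adjusted p = 0.608). The blood vessel list had 10 of 15 tested probes above 0, a summed level of 50.2 to 55.4 in controls and 51.5 to 58.9 in MS mice, and no gene that was never above background. Summed levels here and below are sums over tested probes in multiples of the 75th percentile of the array, and their brightest probes weigh most in them. Cdh19, a cadherin of glia and Schwann cells, gave 0.33 ± 0.49, and its value in MS replicate 2 was -1.05 against -3.36 to -3.06 in the other MS mice. In the glial lists, 12 of 15 oligodendrocyte probes were below 0, with summed levels of 253 to 304 in controls and 228 to 301 in MS mice. Whether vessel or glial content had a part in these cadherin values was not tested.

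Of the other cadherins, Cdh13 (T-cadherin), which is held in the membrane by a lipid anchor and lacks a cytoplasmic tail, read 3.44, 3.81, 3.43 and 3.17 in controls and 3.39, 3.35, 3.46 and 3.69 in MS mice. Its difference of 0.01 ± 0.14 (SE, limma adjusted p = 0.982) changed sign with quantile normalization (-0.014) and with the deposited values (-0.032). Cdh26 gave -0.04 ± 0.08.

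**Figure D4:**
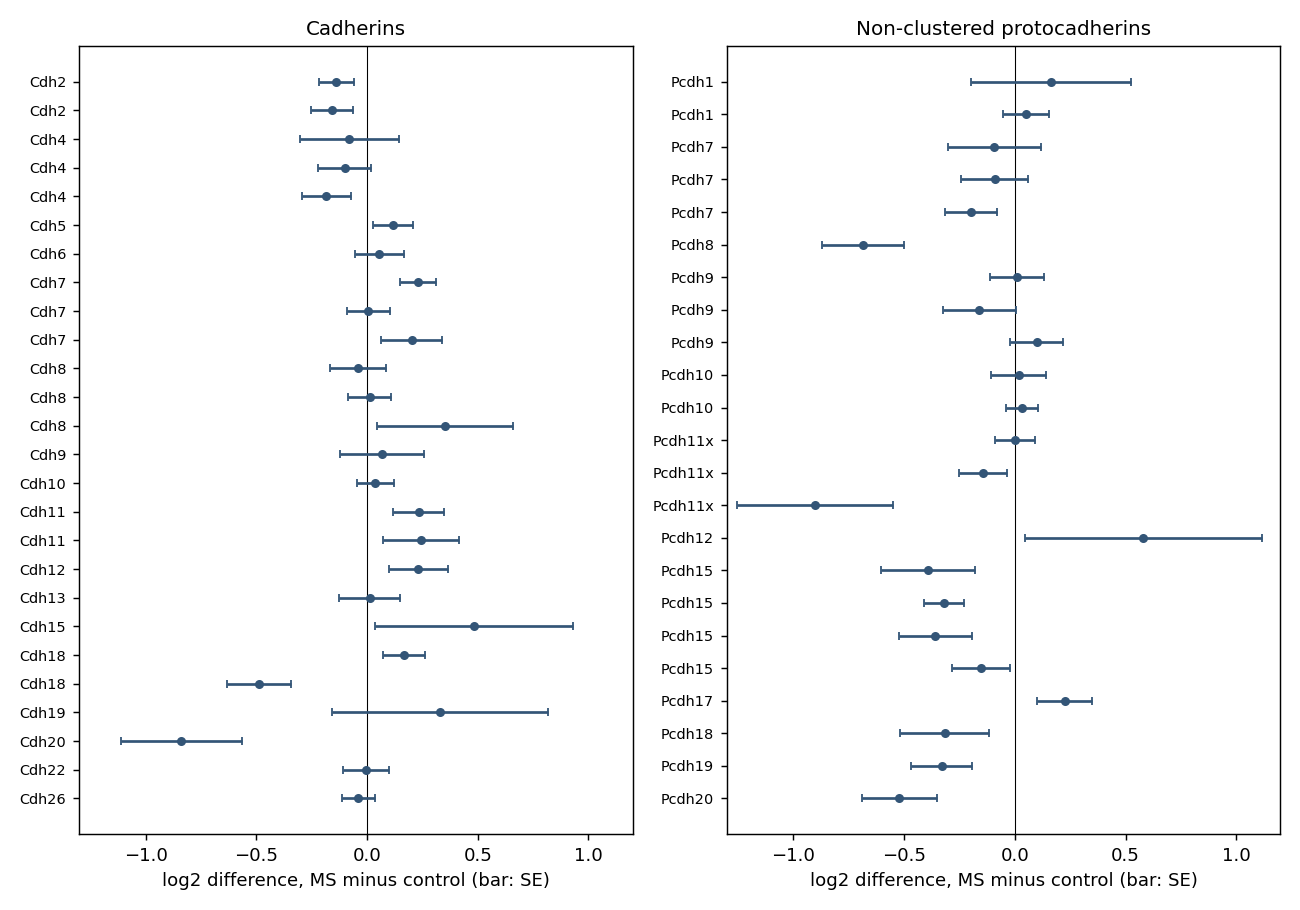
Log2 difference (MS minus control, x axis) with its SE for each tested probe of the classical and other cadherins (left) and of the non-clustered protocadherins (right), 1 row per probe, so that a gene appears as often as it has tested probes. The 4 Pcdh15 probes lie at -0.39 to -0.15, whereas the 3 Pcdh11x probes spread from -0.90 to -0.00 and the 2 Cdh18 probes lie at -0.49 and 0.17.

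How far a family value depends on the probe can be read from the 15 genes with more than 1 tested probe, 38 probes in all. In 10 of these genes the probes shared a sign, and in 5 they did not (Cdh8, Cdh18, Pcdh9, Pcdha8 and Pcdhac2). The 2 probes of Cdh2 differed by 0.02, those of Cdh11 by 0.01 and those of Pcdh10 by 0.02, while the spread was 0.65 in Cdh18 and 0.90 in Pcdh11x.

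The clustered protocadherins were represented by 34 tested probes of 31 genes. By cluster, 4 of 8 alpha probes, 15 of 20 beta probes and 5 of 6 gamma probes were above 0, with medians of 0.02, 0.05 and 0.07. The size of these differences was small, and the median size over the class was 0.08, against 0.11 over all tested probes. With normexp, 17 of the 34 were below 0 and the class median was 0.0044, so that neither sign prevailed under that background correction. Normexp also brought the median over all tested probes to -0.013. Relative to that median the clustered one was 0.018, against 0.056 in the main fit.

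Pcdha11 had the smallest p of the family. Its levels were -3.22, -3.16, -3.33 and -2.95 in controls and -2.37, -2.65, -2.79 and -2.65 in MS mice. All MS mice lay above all controls. The difference was 0.55 ± 0.11 (SE), a ratio of 1.46, with an unadjusted p of 0.00108 and an adjusted p of 0.109 in limma, and it was 0.22 with normexp. Across settings, its adjusted p ran from 0.0705 to 0.315.

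Other alpha probes gave other values. Pcdha4 had a difference of the opposite sign, with levels of -2.20, -2.46, -2.68 and -2.41 in controls and -2.83, -2.71, -2.94 and -2.61 in MS mice. The groups overlapped slightly, and the difference was -0.33 ± 0.12 (SE, limma adjusted p = 0.263), or -0.20 with normexp and -0.14 with the deposited values. Pcdha9 gave -0.17 ± 0.09, and Pcdha12 gave 0.15 ± 0.08.

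In the beta cluster, Pcdhb18 had little spread, with -0.71, -0.73, -0.68 and -0.65 in controls and -0.50, -0.55, -0.56 and -0.54 in MS mice. The groups did not overlap, at a difference of 0.15 ± 0.06 (SE, ratio 1.11, limma adjusted p = 0.303). Pcdhb7 gave 0.65, 0.69, 0.35 and 0.51 in controls and 0.82, 1.06, 0.76 and 0.62 in MS mice. The ranges overlapped, with a difference of 0.27 ± 0.11 (SE, limma adjusted p = 0.346). The extremes of the other beta probes were Pcdhb13 at 0.29 ± 0.14 and Pcdhb22 at -0.25 ± 0.12 (SE), with limma adjusted p of 0.389 and 0.382.

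The C-type members, which neurons of a type tend to use in common rather than at random, were measured through Pcdhac2 and Pcdhgc5. Pcdhgc5 gave -0.01 ± 0.22 (SE), a value whose sign changed with the scaling (0.025 with median scaling and 0.027 with quantile normalization). Pcdhac2 had 2 probes, at -0.09 ± 0.10 and 0.11 ± 0.09. By its RefSeq accessions the latter matches 4 alpha genes and so reads the alpha cluster in common. A second alpha probe, named Pcdha8, matches 3 protocadherin genes and gave 0.06 ± 0.07. The 2 probes named Pcdhga9 match 3 and 4 gamma genes and gave 0.02 ± 0.10 and 0.08 ± 0.08. The 4 probes shared by several genes thus lay between 0.02 and 0.11, each with an SE of 0.07 to 0.10. Of the 58 clustered genes in the RefSeq table, 35 had a probe under their own name, and Pcdhgc3 and Pcdhgc4 were not measured under theirs.

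**Figure D5:**
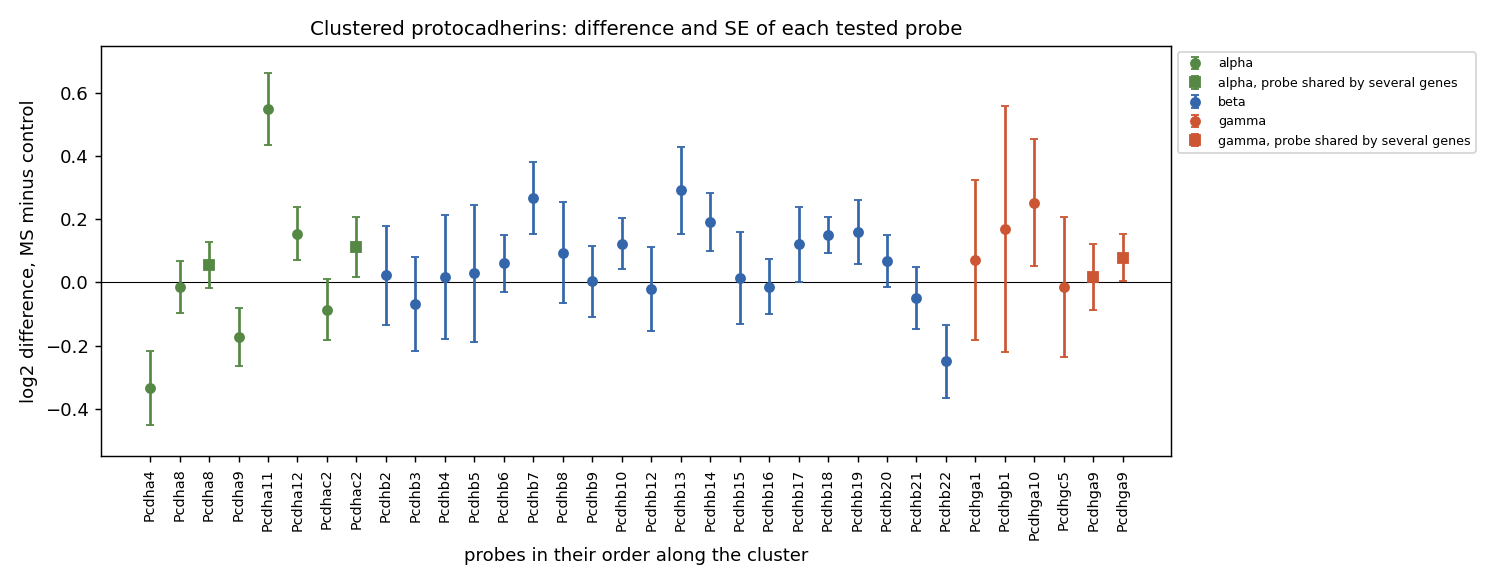
Log2 difference (MS minus control, y axis) with its SE for each of the 34 tested clustered protocadherin probes, placed in their order along the cluster (x axis, not to scale) and coloured by alpha, beta and gamma. Squares are the 4 probes shared by several genes. Pcdha11 stands out at 0.55, between Pcdha9 at -0.17 and Pcdha12 at 0.15.

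The 15 untested member probes were dim in both groups, and 6 member probes were above background on no array. Those of the epithelial cadherins Cdh1 (E-cadherin) and Cdh3 (P-cadherin), of the kidney cadherin Cdh16 and of the hair cell cadherin Cdh23 were never well above background, nor was 1 of the 2 probes of the intestinal cadherin Cdh17. Cdh24, Pcdhac1, Pcdhb1, Pcdhb11, Pcdhga5 and the second probes of Cdh13 and Cdh17 were above background on 1 to 3 of the 8 arrays. No fold is given for any of these. A further 7 tested probes were not above background in every mouse. They were those of Pcdhb5 (0.03), Pcdhgb1 (0.17) and Pcdh12, and 1 probe each of Cdh4, Cdh8, Pcdh1 and Pcdh15.

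The proteins that act with cadherins were examined in 5 lists, and none of their probes passed the threshold of limma (0.00302% of all tested probes did). For the counts below, 7.71% of all tested probes had an unadjusted limma p under 0.05 with a lower level in MS mice. Another 6.35% had it with a higher level, and 49.4% had a difference below 0. Of 18 catenin and plakophilin probes, 10 were above 0, with a median of 0.07, and 1 had an unadjusted p under 0.05. That one was a probe of Vcl (vinculin), which tethers the complex to actin, at 0.47 ± 0.09 (SE, limma adjusted p = 0.0950). It gave 0.12 with normexp and 0.27 with the deposited values. Its levels ran from -3.69 to -3.48 in controls and from -3.24 to -2.96 in MS mice, which did not overlap. The other tested Vcl probe gave 0.08 ± 0.07 (SE, limma adjusted p = 0.670), and the groups overlapped there. No probe of the core partners named here had an unadjusted p under 0.05. Ctnnb1 lay closest to 0, and the others were near the median size over all tested probes (0.11). Ctnnb1 (beta-catenin) gave -0.04 ± 0.06, Ctnna2 (the neuronal alpha-catenin) gave -0.09 ± 0.07 and -0.13 ± 0.11, and Ctnnd2 (delta-catenin) gave 0.12 ± 0.08 and 0.11 ± 0.09. Next in the list were Ctnnal1 (0.14 ± 0.07, and 0.09 ± 0.14 at its other probe) and Pkp4 (-0.19 ± 0.10).

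Of 20 probes of the wider superfamily, which covers flamingo, Fat, Dachsous, calsyntenin and desmosomal genes, 12 were below 0, with a median of -0.03. One probe in each direction had an unadjusted p under 0.05. Ret, the cadherin-domain receptor kinase for the GDNF family, gave -1.22 ± 0.30 (SE, limma adjusted p = 0.148), with levels from -2.75 to -1.73 in controls and from -3.87 to -2.79 in MS mice. These did not overlap, and with normexp Ret passed the threshold at -0.57 (limma adjusted p = 0.0335). Celsr1 gave 0.34 ± 0.11 and Clstn2 gave -0.27 ± 0.13.

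For the WAVE complex and the kinases below protocadherins, 14 of 24 probes were above 0 (median 0.03), and 1 had an unadjusted p under 0.05. The first genes were Ptk2 (focal adhesion kinase) at 0.21 ± 0.06, Cyfip1 at -0.19 ± 0.09 and Wasf1 at 0.20 ± 0.10. Further Ptk2 probes gave 0.15 ± 0.09 and 0.06 ± 0.12. For the regulators of the clustered genes, 15 of 24 were above 0 (median 0.05), with an unadjusted p under 0.05 for 3 higher and 1 lower probe. Ctcf, the factor that loops enhancers to the clustered promoters, gave 0.05 ± 0.06. The smallest p-values were those of the cohesin release factor Wapal (0.19 ± 0.06), the histone methyltransferase Setdb1 (0.24 ± 0.08) and the DNA methyltransferase Dnmt3a (0.25 ± 0.09), with limma adjusted p of 0.229, 0.236 and 0.276. The lower one was Dnmt3b at -0.55 (-0.17 with normexp and with the deposited values), named after its value was seen. Of the 12 protease probes, 6 were below 0 (median -0.03), 1 had an unadjusted p under 0.05, and the first genes were Psen2 (-0.19 ± 0.07), Adam10 (0.13 ± 0.07), the sheddase of N-cadherin, and Mmp2 (-0.46 ± 0.25, or -0.17 with normexp and -0.09 with the deposited values).

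Marker lists of several cell types had differences mostly of 1 sign. All 28 medium spiny neuron probes were above 0, with a median of 0.35, and 15 of them had an unadjusted p under 0.05 in limma. Over all tested probes, 6.35% had such a p with a higher level, and 49.4% had a difference below 0. Summed levels of the medium spiny neuron probes were 884 to 1340 in controls and 1253 to 1527 in MS mice. In the lists of neighbouring regions, 15 of 17 pallidal probes were below 0 (median -0.92, summed levels 244 to 264 in controls and 229 to 247 in MS mice), as were 11 of 12 septal probes (median -0.44, 9.98 to 16.1 and 6.98 to 10.4). So were 10 of 11 hypothalamic and preoptic probes (median -0.61, 38.9 to 55.3 and 23.7 to 32.8), a list in which Avp, Otp and Sim1 were never above background and Lhx5 was the 1 probe of the array that passed the threshold.

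Among the remaining lists, 7 of 8 cholinergic probes were below 0 (12.6 to 15.5 in controls and 10.7 to 13.1 in MS mice), as were 12 of 18 astrocyte probes (99.1 to 110 and 87.1 to 93.4), 6 of 7 oligodendrocyte precursor probes (19.0 to 23.4 and 17.8 to 19.9) and 13 of 13 microglial probes (73.2 to 92.2 and 69.8 to 79.7). Choroid plexus and ependyma had 6 of 9 probes above 0 (2.79 to 3.35 and 2.62 to 3.29), and the cortical list had 6 of 8 below 0 (4.54 to 6.40 and 3.89 to 6.65). The cortical sums leave out the untested Slc17a7 and Neurod6. Slc17a7 read -1.64 in control replicate 2 and -1.42 and -2.08 in MS replicates 3 and 4, against -7.51 to -5.82 elsewhere. Neurod6 was likewise highest in these mice (-2.74, -4.04 and -3.27, others -7.56 to -6.42). Among tested probes, so were Neurod2 (-0.86, -1.17 and -1.54, others -4.68 to -3.25) and Fezf2 (-2.77, -2.59 and -2.58, others -3.68 to -3.02). The tested Tbr1 probe was too (0.61, 0.86 and 0.54, others -3.51 to -0.02), while Cux2, Rorb and Emx1 did not split this way. Levels of some cortical genes thus differed widely within each group. The part of these cell types or regions in the differences of Pcdh8, Pcdh15, Pcdh20, Cdh20 or any other member was not tested.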

How the data were processed

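Total RNA (40 ng) from the NAc of 8 mice was labelled with Cy3 and hybridised to Agilent arrays on 1 slide read in 1 scan. The deposited scanner files contain a background-subtracted intensity per spot from Feature Extraction 10.10.1.1. The authors also deposited log2 values for 31261 probes, with a median of 8.01 per array, which followed the log2 mean signal (r of 0.99967 at the lowest) and are levels on a scale without background subtraction. Their normalization between arrays is not given in the sources used here. The array design in the headers differs from that in the study's methods, and names and positions are those of the headers (mm9).

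Control spots and outlier-flagged spots (122 to 189 per array) were left out, spots of a probe were averaged, and each log2 signal was scaled by the 75th percentile of its array. Groups were compared with limma 3.58.1 in R 4.3.3 over the 33111 probes well above background on at least 4 arrays, with Benjamini-Hochberg adjustment and a threshold of 0.05. The procedure was tested on simulated data. The number of arrays limits the precision. Members, lists and tests were chosen with earlier results of these data known. The rule for named genes took probes past the threshold, up to 10 per class without overlap, a set of well-known members whatever their values (Cdh2, Cdh4, Cdh5, Cdh8 to Cdh11, Cdh13, Pcdh7 to Pcdh10, Pcdh15, Pcdh17, Pcdh19, Pcdh20, Pcdhac2 and Pcdhgc3 to Pcdhgc5), and per pathway list the 3 genes with the smallest p plus Ctnnb1, Ctnna2, Ctnnd2 and Ctcf. Other members are named because the family is described in full, with their values already seen. RefSeq tables of assembly GRCm38.p6 were used for names alone. All 70 symbols were current, and 87 of 98 probes had an accession in the table.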

Additional observations from a re-analysis of the deposited data

Results flagged for a closer look

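In groups of 4 mice, a value was marked when its gap to the nearest other mouse over the range of the group exceeded Dixon's critical value. Of 216 groups of probe values and class medians, 17 were marked, where chance marks about 1 in 20. Control replicate 4 stood apart at Cdh2 (3.55, others 3.34 to 3.37), Cdh22 (3.39, others 3.61 to 3.63) and Pcdh1 (-0.37, others -0.07 to -0.03). Control replicate 2 did so at Pcdhga9 (0.90, others 0.66 to 0.68) and Pcdh11x (-1.47, others -1.26 to -1.22), and control replicate 3 at Pcdhb4 (-3.81, others -3.05 to -2.94).

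Among MS mice, replicate 1 stood apart at Cdh22 (3.30, others 3.62 to 3.68), Pcdha8 (1.04, others 0.92 to 0.94) and Pcdh18 (-0.22, others -1.12 to -0.99). Replicate 2 did so at Cdh19 (-1.05, others -3.36 to -3.06) and Ctnnb1 (3.03, others 2.92 to 2.94). Replicate 3 did so at Pcdhac2 (3.33, others 3.004 to 3.06), Pcdhb21 (1.85, others 1.47 to 1.52), Pcdhb22 (-1.83, others -2.20 to -2.16), Pcdh15 (-4.80, others -4.19 to -4.10) and Ret (-2.79, others -3.87 to -3.77). Replicate 4 did so at Pcdhb5 (-4.87, others -4.24 to -4.13). All are log2 levels over the 75th percentile of the array.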

How the results depend on the processing

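No member probe passed the threshold of limma under any setting tried: normexp background correction (offset 50), scaling to the median, quantile normalization, no filter on dim probes, only probes above background on all 8 arrays, the deposited values, a variance trend with robust moderation, slide row or column as a block, and each mouse left out in turn. The smallest member adjusted p ran from 0.0584 (normexp) to 0.315 (no filter), and 8 to 15 member probes had an unadjusted p under 0.05. Over all tested probes, 3643 (without control replicate 4) to 4968 (trend and robust moderation) had it. In the main fit, 12 of 83 member probes and 4654 of 33111 tested probes had it. Over all probes, 1 passed, against 486 with normexp, 81 with median scaling, 0 without a filter (4850 with unadjusted p under 0.05), 113 above background on all arrays, 375 with the deposited values, 504 with trend and robust moderation, 0 with the column block (4080 with unadjusted p under 0.05) and 0 to 37 with a mouse left out (37 without control replicate 3, 0 without MS replicate 1, 2 or 4 or control replicate 2). Why these counts differ was not tested. Member probes without overlap numbered 6 (7.23%, against 8.67% of all tested probes), 4 to 6 under the other settings with all mice and 6 to 13 with a mouse left out. The 13 (15.7%) came without MS replicate 1, MS replicate 3 or control replicate 3, where 14.1%, 13.3% and 13.9% of all tested probes were without overlap. The clustered median was 0.0044 with normexp, and the non-clustered median -0.04 with the deposited values. Ret was the 1 named probe that crossed the threshold, with normexp. With normexp, the difference changed sign for Cdh22 (0.0012), Cdh6 (-0.0069), Pcdhb15 (-0.0015), Pcdhb2 (-0.014), Pcdhb4 (-0.038), Pcdhb5 (-0.046), Pcdhb8 (-0.0052), Pcdhb9 (-0.025), Pcdhga1 (-0.016) and Pcdh1 (-0.017). With median scaling, where the median over all tested probes was 0.04, it did so for Cdh22 (0.033), Pcdha8 (0.025), Pcdhb12 (0.018), Pcdhb16 (0.025), Pcdhgc5 (0.025), Pcdh11x (0.039) and Cdh26 (0.00046). With quantile normalization it did so for Cdh4 (0.0044), Pcdha8 (0.0089), Pcdhgc5 (0.027), Pcdh11x (0.015) and Cdh13 (-0.014). With the deposited values it did so for Cdh4 (0.027), Cdh7 (-0.024), Cdh8 (-0.022), Pcdha8 (0.0030), Pcdhgc5 (0.041), Pcdh10 (-0.0038) and Cdh13 (-0.032). Leaving out 1 mouse changed the sign of Cdh10 (-0.0048 to 0.079), Cdh19 (-0.22 to 0.56), Cdh22 (-0.064 to 0.082), Cdh4 (-0.21 to 0.15), Cdh6 (-0.0029 to 0.14), Cdh7 (-0.055 to 0.067), Cdh8 (-0.11 to 0.037), Cdh8 (-0.048 to 0.063), Cdh9 (-0.043 to 0.23), Pcdha8 (-0.073 to 0.031), Pcdhb12 (-0.12 to 0.077), Pcdhb15 (-0.059 to 0.11), Pcdhb16 (-0.048 to 0.042), Pcdhb2 (-0.11 to 0.14), Pcdhb3 (-0.17 to 0.019), Pcdhb4 (-0.18 to 0.11), Pcdhb5 (-0.11 to 0.20), Pcdhb8 (-0.019 to 0.24), Pcdhb9 (-0.051 to 0.086), Pcdhga1 (-0.071 to 0.28), Pcdhga9 (-0.025 to 0.10), Pcdhgb1 (-0.13 to 0.49), Pcdhgc5 (-0.18 to 0.15), Pcdh1 (-0.19 to 0.40), Pcdh1 (-0.031 to 0.097), Pcdh10 (-0.075 to 0.11), Pcdh10 (-0.0058 to 0.064), Pcdh11x (-0.060 to 0.026), Pcdh7 (-0.25 to 0.056), Pcdh7 (-0.20 to 0.0035), Pcdh9 (-0.051 to 0.10) and Cdh13 (-0.086 to 0.13), where a gene named more than once has more than 1 such probe. All of these lay near 0 or had a wide SE. Replicate numbers follow accession order and do not pair mice across groups. The column block, with 1 control and 1 MS array in each slide column, was the one fit that paired arrays, by position.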
